A study of Mus musculus with 40 samples.

Results

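The comparison described here sets the uterus of doxorubicin-treated mice 24 h after treatment against the same tissue 4 h after treatment. Its members are the 5 doxorubicin libraries at 24 h and the 5 at 4 h, 10 of the 40 bulk RNA-seq libraries of the series, compared over the 14391 genes (12710 of them protein-coding) with an FPKM of 1 or more in at least 5 of the 10 libraries. FPKM counts fragments per length of gene and per depth of library, and the deposited table lists 54532 genes. The mice were prepubertal (postnatal day 25), and the series text gives 2 weekly doxorubicin doses of 3 mg/kg. Vehicle mice received PBS or saline, a further group received doxorubicin with anti-Müllerian hormone (AMH, 0.75 mg/kg), and another AMH alone, each with 5 libraries at 4 h and 5 at 24 h. The sources used here do not give strain, genotype, route or the clock time of injection and harvest, so the interval after treatment and the time of day at harvest cannot be told apart within doxorubicin. The vehicle libraries carry the same 2 harvest times and are given beside the main results. Libraries are numbered as biological replicates without a statement that each is 1 mouse, so p-values measure the spread between libraries.

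Doxorubicin is an anthracycline that traps topoisomerase II on DNA and leaves double-strand breaks, to which cells respond through the transcription factor p53. Most tissues, the uterus included, also run a circadian clock. In it Arntl pairs with Clock or Npas2 and binds the E-box CACGTG to switch on the Per, Cry and Nr1d genes and the outputs Dbp and Tef, the Per and Cry proteins repress that pair, and the Nr1d proteins repress Arntl, Npas2 and Nfil3. Glucocorticoids from the adrenal gland also follow a daily rhythm and rise with stress.

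The 10 libraries held 16251563 to 21697200 reads in genes, as rebuilt from FPKM. Uterine genes were present in all 10: the smooth muscle actin Acta2 lay between 1011 and 1718 FPKM, the epithelial keratin Krt8 between 131 and 293, and the Müllerian tract factor Hoxa11 between 30.3 and 65.8. The ovarian aromatase Cyp19a1 reached at most 0.0221 FPKM, the muscle creatine kinase Ckm 0.275 and the neutrophil gene S100a8 2.62. Other markers of the same tissues were higher. The ovarian gene Amh reached 11.9 FPKM at 4 h and 9.20 at 24 h. The skeletal muscle actin Acta1 lay between 20.8 and 119 FPKM, and the neutrophil gene S100a9 reached 4.89. The part of these tissues in the libraries was not tested. For 13 markers of oviduct and ciliated cells, the mean log2(FPKM + 1) was 2.98 and 3.56 in 4 h libraries 3 and 4 and 3.40 to 3.88 in 24 h libraries 3, 4 and 5, against 0.58 to 0.83 in the other 5, and the first 5 are called high-oviduct libraries. A fit without them keeps only 4 h libraries 1, 2 and 5 and 24 h libraries 1 and 2 of the doxorubicin groups. Whether a call lost there reflects oviduct tissue or the smaller number of libraries was not tested. Library 5 at 24 h stood apart from its group. It lay at 20.05 on the first principal component of the 10 libraries (27.1% of the variance), among the 4 h libraries (-0.076 to 33.7) and away from the other 24 h libraries (-32.4 to -20.1). Counts without it are therefore printed beside the counts with it.

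Between 4 h and 24 h under doxorubicin, 10 of 19 clock genes, 5 of 18 glucocorticoid-responsive genes and 7 of 25 immediate early genes changed, while the p53 targets had no call. With limma across all 40 libraries and Benjamini-Hochberg adjustment, 294 of 14391 genes passed an adjusted p of 0.05 (2.04%), of which 154 rose (1.07%) and 140 fell (0.973%). Of the 294, 274 were protein-coding, and in 184 the 5 values at 24 h did not overlap the 5 at 4 h. The genes named for the size of their change were also chosen for such separation, so it is a criterion in them and not a result. The median difference of all genes tested was -0.00015 on the log2(FPKM + 1) scale, on which all log2 values below are given. A fit on the 10 libraries alone called 142 genes (0.987%; 57 higher, 0.396%, and 85 lower, 0.591%), 77 of them among the 294. Without library 5 at 24 h, 1366 of the 14391 genes were called (662 higher and 704 lower), and list counts given below without that library are to be read against these. Leaving out any other single library gave 103 (24 h library 3) to 193 calls, except 4 h library 3, which gave 423. In bulk tissue, a lower value can mean fewer cells of a type or less RNA per cell, and these cannot be told apart.

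**Figure D1:**
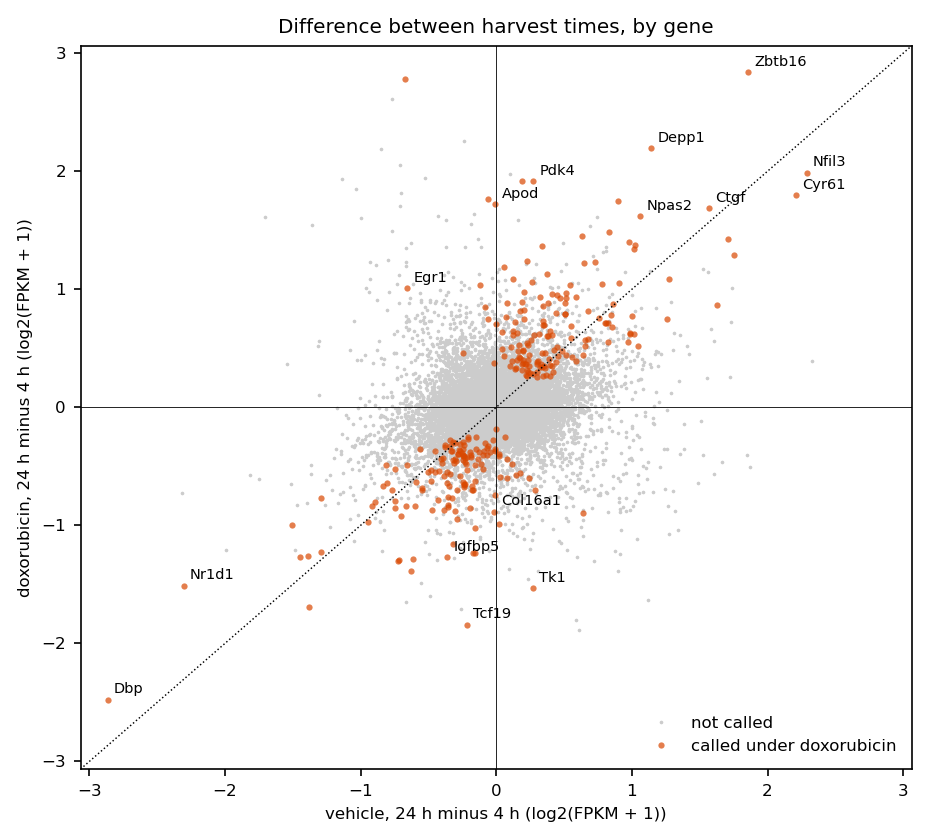
Each point is 1 of 14391 genes, with its difference between 24 h and 4 h on the log2(FPKM + 1) scale under vehicle (x axis) and under doxorubicin (y axis); orange points are the 294 genes called under doxorubicin and the dotted line marks equal differences. Dbp at the lower left and Nfil3, Cyr61 and Ctgf at the upper right lie near that line, while Apod, Pdk4, Tcf19 and Tk1 lie near a vehicle difference of 0. Nr1d1, also at the lower left, lies above the line (-1.51 under doxorubicin, -2.30 in vehicle).

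Among clock genes, Npas2 and Arntl of the activating complex rose, while Dbp, Tef and both Nr1d repressors fell. Of the 19 clock genes measured, 10 were called (52.6%, against 2.04% of all genes): Npas2, Arntl, Nfil3 and Cry1 rose, and Dbp, Ciart, Tef, Nr1d1, Per3 and Nr1d2 fell. The fit on the 10 libraries alone also gave 4 higher and 6 lower, and without library 5 at 24 h there were 5 and 7. In vehicle, 4 of the 19 rose and 8 fell between the same harvest times, and no clock gene differed between the treatments in its change over time.

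Npas2, a partner of Arntl in the activating complex (chr1:39193731-39363236, plus strand, mm10), had FPKM values of 1.75, 1.30, 2.11, 1.72 and 1.16 in 4 h libraries 1 to 5 and 6.63, 8.32, 7.22, 8.63 and 4.65 in 24 h libraries 1 to 5. Every 24 h value lay above every 4 h value. The difference was 1.62 ± 0.13 (SE), with the smallest adjusted p of all genes, 5.6e-10 (limma). In vehicle the mean went from 2.00 to 5.29 FPKM. Arntl itself (chr7:113207465-113314126, plus strand) had 0.611, 1.02, 0.973, 1.22 and 0.757 FPKM at 4 h and 3.41, 4.23, 4.29, 3.54 and 4.26 at 24 h. It rose by 1.37 ± 0.15 (adjusted p = 4.3e-07), and in vehicle from a mean of 1.597 to 4.28. The 4 h values under doxorubicin, at most 1.22, all lay below the lowest 4 h vehicle value of 1.34, a difference of -0.44 that did not pass the test (adjusted p = 0.062). Nfil3, a repressor of the genes that Dbp and Tef activate (chr13:52967209-52981073, minus strand), had 3.02, 4.18, 6.50, 2.99 and 2.91 FPKM at 4 h and 13.4, 25.5, 12.4, 18.0 and 23.8 at 24 h. It rose by 1.99 ± 0.24 (adjusted p = 2.3e-06), against 2.29 in vehicle. Cry1, which represses the Arntl complex, rose from 4.35 ± 0.852 to 7.75 ± 1.14 FPKM (SD, n = 5), a difference of 0.71 (adjusted p = 0.0073), which was lost without the high-oviduct libraries (adjusted p = 0.18). In vehicle Cry1 rose by 0.81. Clock, with a difference of 0.32, was not called (adjusted p = 0.087).

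Dbp, an activator of rhythmic metabolic genes (chr7:45705088-45710203, plus strand), had 110.5, 83.1, 65.9, 57.9 and 74.9 FPKM at 4 h and 19.3, 14.8, 15.1, 11.3 and 7.21 at 24 h. It fell by 2.48 ± 0.31 on the log2 scale (adjusted p = 5.5e-06), the largest fall among the protein-coding calls whose values do not overlap, and in vehicle its mean went from 48.2 to 6.64 FPKM. Nr1d1 (chr11:98767932-98775333, minus strand) had 77.0, 59.3, 52.4, 48.9 and 63.3 FPKM at 4 h and 23.4, 24.7, 20.7, 18.0 and 15.5 at 24 h. It fell by 1.51 ± 0.27 (adjusted p = 0.0015), against a vehicle difference of -2.30. The 2 vehicle differences were larger in size than those under doxorubicin, but the difference between treatments was not called for Dbp (0.39, adjusted p = 0.75) or Nr1d1 (0.79, adjusted p = 0.53). Its relative Nr1d2 fell from 36.6 ± 4.51 to 17.9 ± 3.18 FPKM (difference -0.9999, adjusted p = 0.0087), a call lost without the high-oviduct libraries (adjusted p = 0.14).

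Tef, a close relative of Dbp (chr15:81802421-81826863, plus strand), had 40.8, 37.3, 35.6, 29.6 and 36.3 FPKM at 4 h and 15.8, 14.9, 15.5, 15.2 and 11.1 at 24 h. It fell by 1.26 ± 0.19 (adjusted p = 0.00022), against a vehicle difference of -1.39. Ciart, a repressor of the Arntl complex (chr3:95878503-95882251, minus strand), had 2.89, 3.14, 3.04, 2.59 and 3.14 FPKM at 4 h and 0.434, 0.449, 0.703, 1.12 and 0.420 at 24 h. It fell by 1.30 ± 0.18 (adjusted p = 2.9e-05), and the groups are far apart: the lowest 4 h value was above the highest 24 h value by more than the range within either group. In vehicle the mean of Ciart went from 2.04 to 0.783 FPKM (difference -0.72). Per3 (chr4:151003652-151044665, minus strand) fell from 10.9 ± 1.91 to 4.04 ± 1.19 FPKM (difference -1.27, adjusted p = 0.0080), a call lost without the high-oviduct libraries (adjusted p = 0.13), and in vehicle the difference was -1.45. Per1, which glucocorticoids also induce, was 13.9 ± 3.39 at 4 h and 15.5 ± 4.35 at 24 h (difference 0.13, adjusted p = 0.81). Per2 was 7.58 ± 0.901 and 6.18 ± 0.621 (difference -0.25, adjusted p = 0.49). The values of both overlapped between times. Nr1d1, Dbp and Per3 are each overlapped by a protein-coding gene (Thra, Sphk2 and Camta1), and whether counting used strand is not given.

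The promoter windows of clock genes that changed are shown because the Arntl complex is known to bind the E-box and its targets were among the calls. Windows run from 250 bases before to 50 after each start site in RefSeq on GRCm38.p6, and 16 of the 19 clock genes had one. The E-box CACGTG, which reads the same on both strands, was in the windows of 5 of the 16 (Per1, Cry1, Tef, Ciart and Bhlhe41), against 8.09% of 27025 genes. TTATGTAA, 1 form of the D-box that Dbp, Tef and Nfil3 bind, was searched on both strands and was in 1 of the 16 (Per3, with 2 copies), against 1.11% of genes. AGGTCA, the core of the element that the Nr1d proteins bind, was searched on both strands after the data were seen and was in 5 of the 16, against 18.1% of genes. A match is a description of these letters in this window, not a sign of binding. The stretches below run 5′ to 3′ on the gene's strand and capitals mark the motif. Ciart (chr3:95882237-95882374, minus) has 3 E-boxes and Tef has 1 at each of 2 start sites (chr15:81802516-81802581 and chr15:81811246-81811311, plus). Cry1 (chr10:85185079-85185144, minus), which rose where Ciart and Tef fell, also has 1, and Per3 (chr4:151044786-151044900, minus) has the D-box form.
Ciart: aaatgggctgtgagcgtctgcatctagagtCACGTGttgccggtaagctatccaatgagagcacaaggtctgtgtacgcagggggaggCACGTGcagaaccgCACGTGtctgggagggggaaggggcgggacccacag
Tef first site: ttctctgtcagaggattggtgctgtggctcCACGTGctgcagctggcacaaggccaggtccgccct
Tef second site: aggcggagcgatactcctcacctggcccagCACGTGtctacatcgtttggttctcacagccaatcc
Cry1: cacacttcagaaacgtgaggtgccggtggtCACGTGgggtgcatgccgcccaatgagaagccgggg
Per3: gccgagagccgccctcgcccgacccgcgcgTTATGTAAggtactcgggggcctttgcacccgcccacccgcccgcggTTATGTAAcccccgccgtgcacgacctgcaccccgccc

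**Figure D2:**
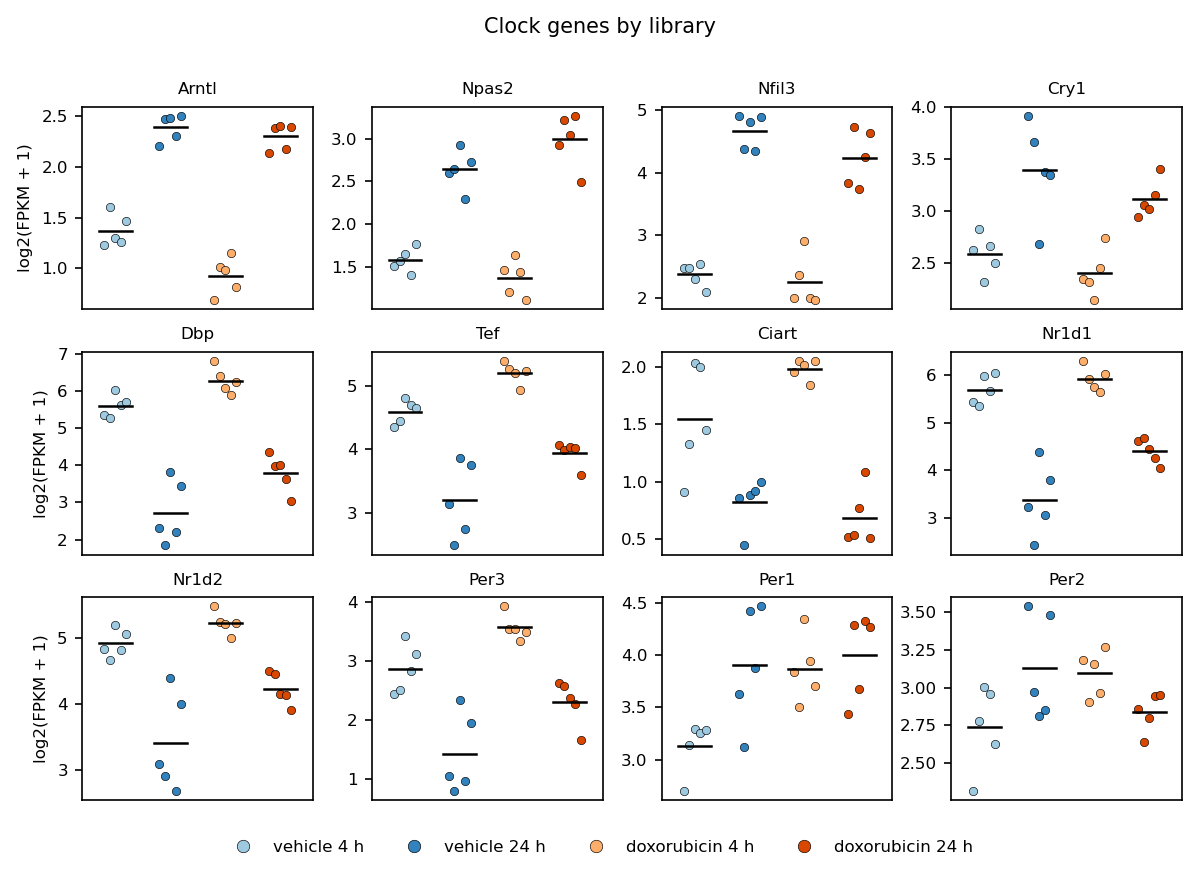
The log2(FPKM + 1) of 12 clock genes in each library (points, n = 5 per group) with group means (lines), for vehicle (blue) and doxorubicin (orange) at 4 h (light) and 24 h (dark). Arntl, Npas2, Nfil3 and Cry1 are higher and Dbp, Tef, Ciart, Nr1d1, Nr1d2 and Per3 lower at 24 h in all 5 doxorubicin libraries, while Per1 and Per2 overlap.

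Of 18 measured genes that glucocorticoids induce, 5 rose and none fell. All 18 had a positive difference, with a median of 0.48 against -0.00015 over all genes, and the calls were Zbtb16, Dusp1, Errfi1, Pdk4 and Tsc22d3. In vehicle 4 of the 18 rose and the median was 0.61. The 10 libraries alone called 2 of them, and without library 5 at 24 h there were 6 calls. Zbtb16, the promyelocytic leukaemia zinc finger repressor (chr9:48654297-48836222, minus strand), had the largest rise among the calls with separate values. Its FPKM was 0.771, 0.569, 1.62, 1.14 and 0.833 at 4 h and 8.79, 18.6, 7.56, 19.9 and 14.6 at 24 h. The difference was 2.84 ± 0.33 (adjusted p = 1.5e-06), and the lowest 24 h value was several times the highest 4 h value. In vehicle it was 1.86, and the treatments did not differ in this (adjusted p = 0.53).

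Dusp1, a phosphatase that switches off MAP kinases and also an immediate early gene, had 3.93, 5.03, 7.60, 5.23 and 4.65 FPKM at 4 h and 17.4, 19.999, 11.3, 10.6 and 10.6 at 24 h. It rose by 1.23 ± 0.18 (adjusted p = 0.00012), and in vehicle by 0.72. Its window (chr17:26508578-26508645, minus) holds the full cAMP response element TGACGTCA, which 3 of 23 matched immediate early genes and 2.03% of all genes have on either strand. One full form of the serum response element, searched on both strands, was in 0 of the 23 and in 0.0777% of all genes.
Dusp1: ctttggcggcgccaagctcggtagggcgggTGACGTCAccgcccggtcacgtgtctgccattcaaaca
Tsc22d3, the glucocorticoid-induced leucine zipper, had 22.7, 18.8, 22.4, 17.1 and 19.6 FPKM at 4 h and 30.9, 68.8, 32.4, 58.2 and 33.6 at 24 h. The groups did not overlap, and libraries 2 and 4 at 24 h were well above the other 3. It rose by 1.04 ± 0.23 (adjusted p = 0.011), a call lost without 24 h library 2 (0.064) or 4 (0.055), in the 10 libraries alone (0.052) and without the high-oviduct libraries (0.051). In vehicle its difference was 0.78 (adjusted p = 0.077). Errfi1, an inhibitor of the EGF receptor, rose by 1.29 ± 0.22 (adjusted p = 0.00067; 0.064 in the 10 libraries alone), with 4 h library 3 at 29.95 FPKM inside the 24 h range of 25.5 to 60.7. In vehicle Errfi1 rose by 1.76. Pdk4, which restrains glucose oxidation and is also abundant in fat, was 1.74 to 4.45 FPKM at 4 h and 8.41, 59.6, 11.1, 22.5 and 3.90 at 24 h. It rose by 1.91 ± 0.41 (adjusted p = 0.0082), and the call was lost in the 10 libraries alone (0.13) and without 24 h library 2 (0.052), the library with the highest adipocyte marker level. In that library the mean log2(FPKM + 1) of 10 adipocyte markers was 6.13, against 2.73 to 3.61 in the other 24 h libraries. The vehicle difference of Pdk4 was 0.27 (adjusted p = 0.78). The part of attached fat in the Pdk4 values was not tested. Sgk1 and Fkbp5, other genes that glucocorticoids induce, had differences of 0.46 and 0.48 and were not called (adjusted p = 0.30 and 0.40).

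Immediate early genes, which respond to growth factors and stress within minutes, rose in part. Of 25 measured, 7 rose and none fell (28.0% called): Ctgf, Dusp1, Cyr61, Egr1, Jun, Klf2 and Fos. The 10 libraries alone called 5, and without library 5 at 24 h 11 rose and 1 fell. The median difference of the 25 was 0.29, and in vehicle 6 rose with a median of 0.45. In 8 of the 25 all 24 h values lay above all 4 h values, and in 1 (Fosl1) below, where 1.81% and 2.16% of all genes did so. Ctgf, a matricellular protein and YAP target (chr10:24595442-24598683, plus strand), had 7.59, 5.98, 8.97, 10.6 and 6.46 FPKM at 4 h and 33.4, 31.0, 30.8, 30.6 and 15.2 at 24 h. Library 5 was the low one at 24 h, though above all 4 h values. The rise was 1.69 ± 0.22 (adjusted p = 6.7e-06), against 1.57 in vehicle. Its relative Cyr61 (chr3:145646976-145649981, minus strand) had 4.16, 4.60, 6.55, 5.17 and 4.83 FPKM at 4 h and 26.4, 19.1, 20.2, 21.04 and 14.5 at 24 h. It rose by 1.80 ± 0.29 (adjusted p = 0.00035), and in vehicle by 2.21.

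The AP-1 subunit Jun had 49.4, 49.2, 53.3, 40.9 and 39.3 FPKM at 4 h and 99.8, 84.4, 71.0, 73.1 and 67.4 at 24 h. It rose by 0.75 ± 0.15 (adjusted p = 0.0070), and in vehicle by 1.26. Its partner Fos had 4.15, 5.30, 6.95, 3.80 and 4.40 FPKM at 4 h and 26.1, 21.1, 16.6, 8.82 and 7.23 at 24 h, so that the 24 h libraries spread widely above a tight 4 h group. Fos rose by 1.40 ± 0.33 (adjusted p = 0.016), a call lost in the 10 libraries alone (0.060) and without 24 h library 1 (0.10), 2 (0.066) or 3 (0.069). In vehicle the difference of Fos was 0.98 (adjusted p = 0.11). Klf2, a zinc finger factor of endothelium, rose by 1.03 ± 0.22 (adjusted p = 0.0073), from 20.1 ± 3.16 to 43.0 ± 11.6 FPKM, and its vehicle difference was 0.55 (adjusted p = 0.19).

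Egr1, an early growth response factor, was 1 of the 2 genes whose change over time differed between doxorubicin and vehicle. Its FPKM under doxorubicin was 10.6, 8.91, 13.2, 6.31 and 15.5 at 4 h and 18.8, 33.1, 28.5, 16.4 and 18.1 at 24 h. In vehicle it was 14.4, 15.5, 13.7, 13.9 and 13.1 at 4 h and 5.28, 10.2, 11.1, 8.08 and 9.50 at 24 h. The order of the times was therefore opposite, with no overlap within either treatment. The difference was 1.01 under doxorubicin (adjusted p = 0.0070; 0.080 in the 10 libraries alone) and -0.66 in vehicle (adjusted p = 0.094), and the difference between these, 1.67, had an adjusted p of 0.037 (limma). Egr1 was named after its values were seen, as were Cry1, Jun, Klf2, Tsc22d3, Pdk4, Banp, Ccdc117 and mt-Rnr2.

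Cytosolic chaperones, which refold proteins, rose in part. Of 18 heat shock genes, 3 rose and none fell (16.7% called), against 9 that rose in vehicle. In 6 of the 18 all 24 h values lay above all 4 h values, which 1.81% of all genes did. Dnaja1, a co-chaperone of Hsp70 (chr4:40722150-40737149, plus strand), had 26.2, 26.9, 38.2, 31.4 and 29.4 FPKM at 4 h and 44.9, 39.0, 46.8, 52.0 and 53.8 at 24 h. It rose by 0.62 ± 0.11 (adjusted p = 0.0024), where vehicle gave 1.02. Hspa1a, an inducible Hsp70, had 4.98, 6.69, 6.58, 5.21 and 5.05 FPKM at 4 h and 13.2, 10.01, 10.9, 8.32 and 14.3 at 24 h. It rose by 0.87 ± 0.18 (adjusted p = 0.0073), and in vehicle from a mean of 5.53 to 19.9, with no call for the difference between treatments (-0.76, adjusted p = 0.51). Its near-identical copy Hspa1b was not called (difference 0.66, adjusted p = 0.11), and reads could be split between the copies. Chordc1, an Hsp90 co-chaperone, rose from 7.39 ± 0.715 to 11.4 ± 2.19 FPKM (difference 0.56, adjusted p = 0.013; 0.052 in the 10 libraries alone and 0.17 without the high-oviduct libraries). In vehicle Chordc1 rose by 0.97 (adjusted p = 6.3e-05). The heat shock element, as 3 alternating units searched on both strands, was in the windows of 4 of 15 matched heat shock genes and 0.662% of all genes. The most abundant member, Hsp90ab1, had means of 923 and 857 FPKM and was not called (adjusted p = 0.70). In the endoplasmic reticulum stress list, 1 of 19 rose (5.26%): the chaperone Dnajb9, from 14.4 ± 2.07 to 24.5 ± 5.51 FPKM (difference 0.71, adjusted p = 0.0073; 0.053 in the 10 libraries alone and 0.17 without the high-oviduct libraries). The vehicle rise of Dnajb9 was 0.80 (adjusted p = 0.0048). In vehicle 2 of the 19 rose, and the list median was 0.41 against 0.10 under doxorubicin.

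**Figure D3:**
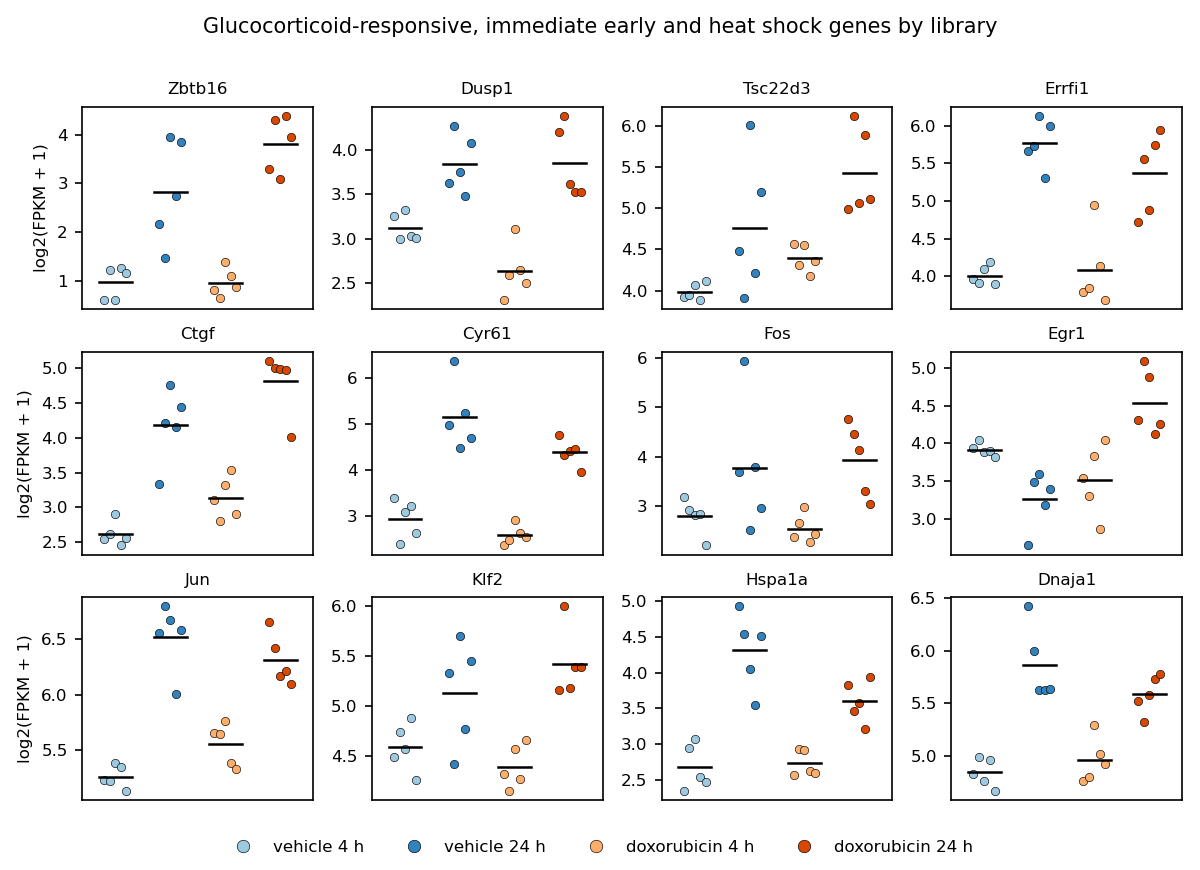
The log2(FPKM + 1) of 12 glucocorticoid-responsive, immediate early and heat shock genes in each library (points, n = 5 per group) with group means (lines). Under doxorubicin (orange) the 24 h libraries lie above the 4 h libraries for each gene except Errfi1, where 4 h library 3 reaches into the 24 h range, and Egr1 alone runs the opposite way in vehicle (blue).

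The mean of the DNA replication genes was lower in every doxorubicin library at 24 h than in any at 4 h. All 29 measured members had a negative difference, with a median of -0.99, and in 22 of them all 24 h values lay below all 4 h values (2.16% of all genes did so). Only 1 of the 29, Tk1, passed the test across all 40 libraries (3.45%), while the 10 libraries alone called 15 and leaving out library 5 at 24 h gave 21. The mean log2(FPKM + 1) of the 29 was 3.05, 2.92, 2.87, 3.75 and 3.30 in 4 h libraries 1 to 5 and 2.06, 1.95, 2.14, 1.89 and 2.58 at 24 h, without overlap. In vehicle the same mean spread over both times, from 2.57 to 3.89 at 4 h and from 2.09 to 4.36 at 24 h. The difference between treatments was not called for any of the 29.

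Thymidine kinase Tk1 (chr11:117815526-117826092, minus strand) had 6.92, 7.69, 6.08, 12.3 and 5.55 FPKM at 4 h and 2.37, 1.75, 2.07, 1.42 and 2.02 at 24 h. It fell by 1.53 ± 0.42 (adjusted p = 0.042; 0.0051 in the 10 libraries alone). The call was lost without any 1 of 4 h libraries 1, 2, 4 and 5 and 24 h libraries 1 to 4, with adjusted p from 0.053 to 0.13, and without the high-oviduct libraries (0.25). Tk1 overlaps Afmid. Tcf19, a factor of the late G1 and S phases (chr17:35512734-35516824, minus strand), had 24.3, 22.8, 20.5, 38.8 and 21.8 FPKM at 4 h and 6.64, 4.81, 6.94, 5.30 and 7.95 at 24 h. It fell by 1.84 ± 0.46 (adjusted p = 0.026; 0.0012 in the 10 libraries alone), and leaving out any 1 of 4 h libraries 1 and 4 and 24 h libraries 1 to 4 gave 0.052 to 0.084, and leaving out the high-oviduct libraries 0.14. In vehicle neither gene was called, with differences of 0.27 for Tk1 and -0.22 for Tcf19. The ribonucleotide reductase subunit Rrm2 had the most negative difference, from 14.2 to 2.93 FPKM (-1.88, adjusted p = 0.071), and the helicase subunit Mcm5 went from 18.9 to 5.79 (-1.596, adjusted p = 0.10). Pcna, the sliding clamp, was 53.9 and 27.1 FPKM (-0.94, adjusted p = 0.16).

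Genes of mitosis had no call between the times. All 30 had a negative difference, with a median of -0.59, and none was called by limma (1 at an unadjusted p under 0.05, which 2395 of all 14391 genes, or 16.6%, had), nor in the 10 libraries alone or without library 5 at 24 h. In vehicle the median difference of the 30 was 1.02. None of them was called in vehicle or for the difference between treatments. Mki67, a marker of cycling cells, had 16.9, 14.97, 11.2, 18.6 and 4.72 FPKM at 4 h and 13.0, 5.52, 11.2, 3.23 and 2.90 at 24 h. Top2a, the doxorubicin target of dividing cells, had 23.02, 18.4, 16.5, 25.6 and 8.002 FPKM at 4 h and 10.9, 5.43, 12.8, 3.58 and 4.44 at 24 h (difference -1.24 ± 0.67, adjusted p = 0.36). In both genes 4 h library 5 lay within the 24 h range, so the groups overlapped. In Mki67, 24 h library 1 (13.0) also lay above 4 h library 3 (11.2), so that overlap did not rest on library 5 alone. Top2b, the isoform that non-dividing cells also have, was 12.1 ± 0.957 and 11.6 ± 1.59 FPKM (difference -0.06, adjusted p = 0.82).

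The targets of p53 had no call between 24 h and 4 h. None of 20 genes of arrest and feedback, 15 of apoptosis and 15 of metabolism and repair passed the limma test (3, 2 and 2 at an unadjusted p under 0.05). The 10 libraries alone also gave no call, and without library 5 at 24 h 1, 2 and 2 rose. Their median differences were 0.05, 0.08 and 0.10, against -0.00015 over all genes. In vehicle 1, 2 and 0 of them rose and none fell, with medians of 0.14, 0.12 and -0.0072. Cdkn1a (p21, chr17:29090976-29100727, plus strand), the cyclin-dependent kinase inhibitor induced by p53, had 38.6, 86.5, 79.8, 14.7 and 69.7 FPKM at 4 h and 39.7, 96.9, 92.7, 82.5 and 52.7 at 24 h. The 2 ranges overlapped almost wholly, with 4 h library 4 the low one, and the difference was 0.49 ± 0.36 (adjusted p = 0.53). Vehicle libraries had at most 5.07 FPKM at 4 h and 17.6 at 24 h, below every doxorubicin library at the same time. The vehicle difference of Cdkn1a was 1.30 (adjusted p = 0.061), and the difference between treatments was not called (-0.82, adjusted p = 0.60). Mdm2, the ligase that degrades p53, was 18.6 ± 5.40 and 17.4 ± 3.63 FPKM (difference -0.06 ± 0.15, adjusted p = 0.88). Trp53 itself was 35.0 ± 4.72 and 27.2 ± 6.59 FPKM (difference -0.37, adjusted p = 0.082). A p above the threshold does not show equal levels.

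Among 23 DNA repair genes, 20 had a negative difference and 1 was called: Rad50, of the complex that senses double-strand breaks. It had 12.2, 11.3, 10.5, 9.96 and 11.9 FPKM at 4 h and 7.54, 8.47, 8.21, 6.29 and 8.89 at 24 h, without overlap. It fell by 0.46 ± 0.09 (adjusted p = 0.0035; 0.052 in the 10 libraries alone), and its vehicle difference was -0.23 (adjusted p = 0.17). Of 6 topoisomerases, Top3a fell by 0.31 ± 0.09 (adjusted p = 0.045), a call lost in the 10 libraries alone (0.15), without the high-oviduct libraries (0.11) and without any 1 of 4 h libraries 1, 2, 4 and 5 and 24 h libraries 1 to 4 (0.051 to 0.15).

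Interferon-stimulated genes were higher in 4 of the 5 libraries at 24 h than in 4 of the 5 at 4 h. All 38 members had a positive difference, with a median of 0.45, and none was called by limma across 40 libraries (15 at an unadjusted p under 0.05) or in the 10 libraries alone. There were 16 that rose without library 5 at 24 h and 14 without the high-oviduct libraries. In vehicle none of the 38 was called, with a median of 0.25. The mean log2(FPKM + 1) of the 38 was 2.90, 3.14, 4.33, 3.40 and 3.14 at 4 h and 4.02, 4.26, 4.13, 3.95 and 2.93 at 24 h. Library 3 at 4 h was thus as high as the 24 h libraries, and library 5 at 24 h as low as the 4 h libraries. Both are high-oviduct libraries, so the 14 calls come from a fit without the 2 libraries that run against the other 8, and are not separate support. Ifit3, which restrains viral RNA, had 16.7, 29.7, 116.4, 31.8 and 28.1 FPKM at 4 h and 72.5, 106.4, 85.2, 57.3 and 18.2 at 24 h (difference 0.73 ± 0.48, adjusted p = 0.47). Isg15, a ubiquitin-like protein, had 18.99, 25.95, 125.9, 43.4 and 29.95 FPKM at 4 h and 46.1, 66.2, 72.5, 65.1 and 23.96 at 24 h (difference 0.41, adjusted p = 0.68). The same 2 libraries stand apart in both genes. GAAA, any 2 bases and GAAA again, a form of the interferon-stimulated response element searched on both strands, was in the windows of 15 of 26 matched members and 3.99% of all genes. Genes of MHC class I gave no call among 15 measured (4 at an unadjusted p under 0.05), and 6 rose without library 5.

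Of 17 macrophage genes, 16 had a positive difference (median 0.47) and 2 rose, Lyve1 and Ms4a7, while 9 rose without library 5 at 24 h. In vehicle 1 of the 17 was called, with a median of 0.06. Lyve1, a hyaluronan receptor of resident macrophages and lymphatic vessels, had 9.61, 9.76, 7.001, 12.7 and 12.04 FPKM at 4 h and 22.7, 15.1, 16.3, 18.1 and 16.9 at 24 h. It rose by 0.76 ± 0.16 (adjusted p = 0.0092), as in vehicle (0.76), and the call was lost without 24 h library 1 (0.058) and without the high-oviduct libraries (0.0504). Ms4a7 had at most 1.05 FPKM at 4 h and 2.06, 1.87, 2.25, 1.77 and 0.775 at 24 h. It rose by 0.64 ± 0.15 (adjusted p = 0.017), lost in the 10 libraries alone (0.12) and without 4 h library 2 (0.055) or 24 h library 1 (0.076), 2 (0.056) or 3 (0.094), and its vehicle difference was 0.04. The general macrophage marker Adgre1 ranged from 4.06 to 6.13 FPKM at 4 h and from 4.51 to 15.3 at 24 h. Of 15 acute-phase genes, Apod and Serpina3n rose. Apod, a lipid carrier, had 1.22, 1.80, 3.66, 3.61 and 4.19 FPKM at 4 h and 21.6, 21.3, 16.7, 7.60 and 2.52 at 24 h, with library 5 again at the 4 h level. It rose by 1.72 ± 0.38 (adjusted p = 0.011), lost in the 10 libraries alone (0.13) and without 24 h library 1 (0.063), 2 (0.057) or 3 (0.062), and the vehicle means were 1.17 and 1.26 FPKM. Serpina3n, a protease inhibitor, had 19.7 FPKM in 4 h library 3 and 1.39 to 3.87 in the other 4, and 67.1 in 24 h library 2 against 6.28 to 21.4. It rose by 1.92 ± 0.50 (adjusted p = 0.033), a call lost in the 10 libraries alone (0.22) and without any 1 of 4 h libraries 1, 2, 4 and 5 and 24 h libraries 2, 3 and 4 (0.066 to 0.16).

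Col16a1 and Igfbp5, a binding protein of growth factors, fell. Of 17 collagens, 15 had a negative difference (median -0.56) and 1 fell, Col16a1, with 9 falling without library 5 at 24 h. Col16a1 (chr4:130047840-130099283, plus strand) had 67.6, 71.4, 42.8, 66.0 and 62.0 FPKM at 4 h and 35.4, 24.7, 29.8, 27.8 and 50.7 at 24 h. Library 5 at 24 h and library 3 at 4 h made the overlap. It fell by 0.88 ± 0.16 (adjusted p = 0.0017; 0.058 in the 10 libraries alone), while vehicle had means of 61.6 and 61.0 FPKM. The difference between treatments was -0.87 and was not called (adjusted p = 0.51).

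Igfbp5, which binds insulin-like growth factors (chr1:72857932-72874884, minus strand), was the call of 13 genes of that axis. It had 319.6, 266.3, 191.2, 290.6 and 318.4 FPKM at 4 h and 106.3, 111.3, 94.4, 58.6 and 273.5 at 24 h, with library 5 inside the 4 h range. It fell by 1.27 ± 0.27 (adjusted p = 0.0073; 0.10 in the 10 libraries alone), and its vehicle difference was -0.36 (adjusted p = 0.51). Fibronectin Fn1 fell by 0.87 ± 0.22 (adjusted p = 0.027), lost in the 10 libraries alone (0.14), without the high-oviduct libraries (0.089) and without any 1 of 4 h libraries 1, 2 and 4 and 24 h libraries 1, 3 and 4 (0.050 to 0.15). The stromelysin Mmp3 rose by 0.85 ± 0.23 (adjusted p = 0.046), lost in the 10 libraries alone (0.18) and without any 1 of 4 h libraries 1, 2 and 4 and 24 h libraries 1 to 4 (0.066 to 0.19). Of 23 cholesterol synthesis genes, 22 had a negative difference (median -0.39) and none was called by limma (8 at an unadjusted p under 0.05), nor in the 10 libraries alone, while 6 fell without library 5.

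Of the receptors Esr1, Pgr and Amhr2, none was called. Esr1, the oestrogen receptor, was 45.1 ± 2.92 and 41.6 ± 4.55 FPKM (difference -0.12, adjusted p = 0.46), and the progesterone receptor Pgr 47.6 ± 8.38 and 41.4 ± 7.81 (difference -0.20, adjusted p = 0.50). None of 28 oestrogen-responsive genes was called by limma (4 at an unadjusted p under 0.05). Gata2, a progesterone-related factor of the uterus that also marks mast cells, had 44.4 to 50.4 FPKM at 4 h and 33.1 to 40.003 at 24 h, and fell by 0.36 ± 0.07 (adjusted p = 0.0035; 0.055 in the 10 libraries alone). Its vehicle difference was -0.24 (adjusted p = 0.061). Of 7 mast cell genes measured, Gata2 was the only call, and the other 6 had a positive difference. Amhr2, the AMH receptor, had 3.78, 3.38, 3.62, 8.18 and 4.16 FPKM at 4 h and 2.11, 1.602, 2.57, 1.57 and 8.09 at 24 h (difference -0.55, adjusted p = 0.28). At 24 h, 4 of the 5 values lay below every 4 h value. Its 2 high libraries, 4 at 4 h and 5 at 24 h, were also those with the highest mean of 4 ovarian genes (3.91 and 3.92, against 2.56 to 3.04 in the other 8), and the part of ovarian tissue was not tested. Of 27 genes of the AMH and BMP pathway, 1 was called (3.70%, against 2.04% of all genes), while in vehicle 3 fell and none rose. That call was Atoh8, a target of BMP signalling, which rose. It had 3.92, 4.88, 4.51, 3.61 and 5.18 FPKM at 4 h and 7.19, 12.9, 13.7, 11.6 and 7.46 at 24 h, without overlap. The rise was 1.06 ± 0.20 (adjusted p = 0.0036), and the call was lost without the high-oviduct libraries (0.074). In vehicle the difference was 0.26 (adjusted p = 0.54).

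Among the other genes with the largest changes, Depp1, a stress gene controlled by FOXO factors, had 2.77, 1.13, 1.76, 1.55 and 1.25 FPKM at 4 h and 10.7, 31.3, 11.2, 10.6 and 3.80 at 24 h. It rose by 2.20 ± 0.36 (adjusted p = 0.00052), against 1.14 in vehicle. Oxtr, the oxytocin receptor of the myometrium, had 1.82, 2.15, 1.71, 3.45 and 1.11 FPKM at 4 h and 15.04, 4.06, 7.57, 8.04 and 4.01 at 24 h. It rose by 1.43 ± 0.29 (adjusted p = 0.0065; 0.057 in the 10 libraries alone), and in vehicle from a mean of 5.38 to 21.8 FPKM. Banp, a chromatin protein that binds CGCG motifs, had the second smallest p of all genes. It had 2.85, 3.73, 3.22, 2.92 and 3.44 FPKM at 4 h and 7.44, 7.25, 7.50, 8.74 and 8.94 at 24 h, a rise of 1.08 ± 0.11 (adjusted p = 1.1e-07) with little spread in either group. In vehicle it rose by 1.27. Fam180a rose by 1.45 (adjusted p = 0.0073), Tceal5 fell by 1.23 (adjusted p = 0.0063) and Tnnt2, a cardiac troponin T, fell by 1.16 (adjusted p = 0.0057). Vwf, the von Willebrand factor of endothelium, rose by 0.64 ± 0.16 (adjusted p = 0.027), lost in the 10 libraries alone (0.075), without the high-oviduct libraries (0.12) and without any 1 of 4 h libraries 4 and 5 and 24 h libraries 1 to 4 (0.061 to 0.12). It was the only call of 14 blood endothelium genes, of which 9 had a positive and 5 a negative difference (median 0.16).

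Markers of neighbouring tissue varied between libraries without a call between the times, while the mitochondrial ribosomal RNA mt-Rnr2 was called. All 10 adipocyte, all 13 oviduct and all 6 squamous epithelial markers had positive differences (medians 1.65, 0.83 and 1.44), and none was called by limma (4, 0 and 1 at an unadjusted p under 0.05). The squamous mean was 6.99 in 4 h library 2 and 6.02 in 24 h library 1, and the secreted oviduct protein Ovgp1 ranged from 0.264 to 320.9 FPKM within the 4 h group. Of 14 smooth muscle genes, 18 stroma markers and 17 epithelial genes, none was called (4, 1 and 1 at an unadjusted p under 0.05). The same held for 19 chemokines, 19 NRF2 targets, 24 ribosomal protein genes, 26 genes of WNT signalling and Müllerian patterning, and 18 nuclear genes of oxidative phosphorylation (2, 1, 4, 5 and 2). The mitochondrial ribosomal RNA mt-Rnr2 had 97.3, 93.1, 70.1, 48.3 and 43.5 FPKM at 4 h and 290.0, 541.5, 276.1, 264.2 and 51.6 at 24 h. It rose by 1.75 ± 0.35 (adjusted p = 0.0067; 0.15 in the 10 libraries alone), and library 5 at 24 h kept the 4 h level. Mitochondrial ribosomal RNA took 0.081 to 0.157% of reads in the other 4 libraries at 24 h and 0.0149% in library 5. Rescaling to reads outside mitochondrial genes gave 294 calls, of which 291 were shared. The part of these differences in the gene groups above was not tested beyond the counts given without library 5 and without the high-oviduct libraries.

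**Figure D4:**
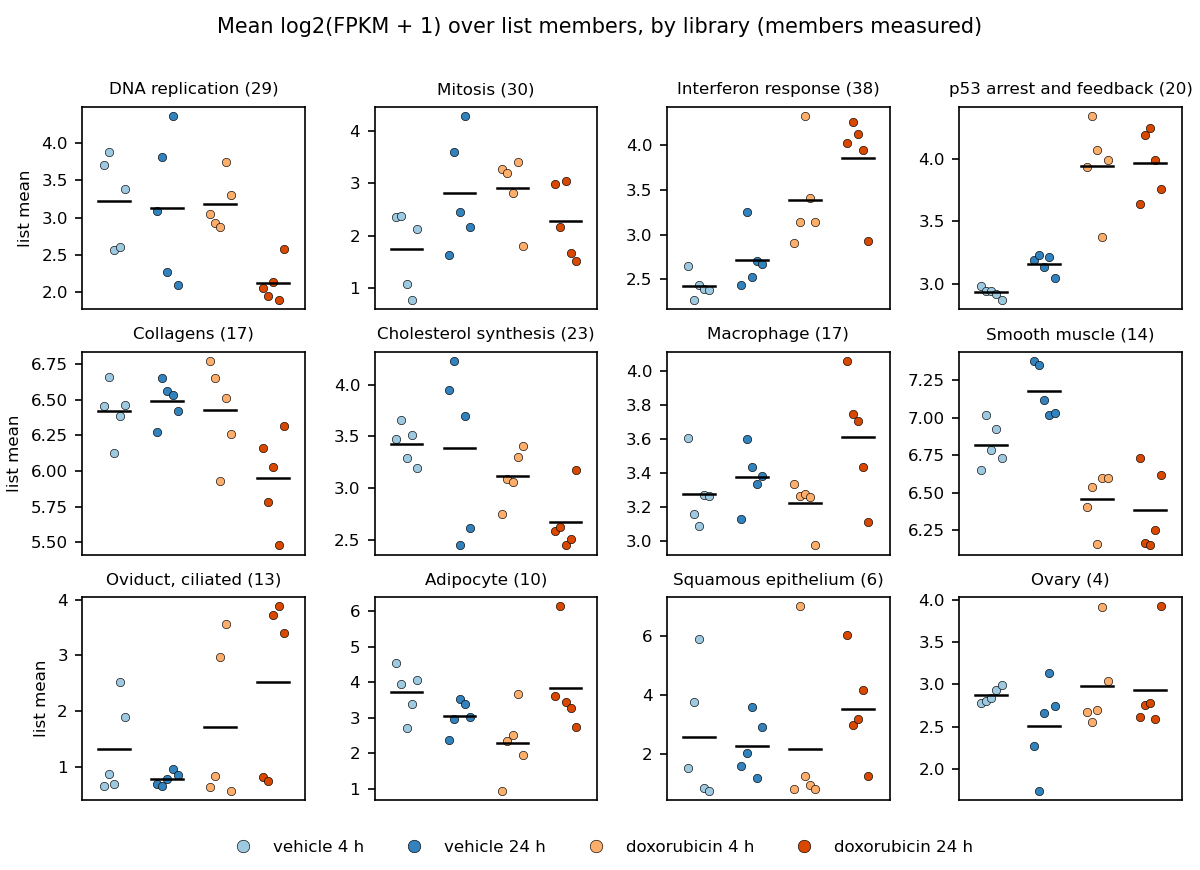
The mean log2(FPKM + 1) over the measured members of 12 gene lists (number in brackets) in each library, n = 5 per group, with group means as lines. The DNA replication mean is lower in all 5 doxorubicin 24 h libraries (1.89 to 2.58) than at 4 h (2.87 to 3.75), and the interferon mean of 24 h library 5 (2.93) lies with the 4 h libraries. The oviduct mean is high in the high-oviduct doxorubicin libraries of both times, and the squamous and adipocyte means spread widely between doxorubicin libraries of the same time.

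The changes under doxorubicin were set against those in vehicle, where 578 of 14391 genes were called between 24 h and 4 h (4.02%; 351 higher, 2.44%, and 227 lower, 1.58%). When values were rescaled to total reads in genes, that split was 180 higher and 400 lower. Leaving out vehicle 24 h library 1, 2, 4 or vehicle 4 h library 5 left 87, 203, 186 and 292 calls, and leaving out vehicle 24 h library 3 gave 1734. The 2 comparisons share no library. Of the 294 genes called under doxorubicin, 270 had the same sign in vehicle, and 85 were called there too, all in the same direction, which is 28.9% of the doxorubicin calls and 14.7% of the vehicle calls. The share of all genes with the same sign is not given here. The Pearson correlation of the 2 differences was 0.76 over the 294 but 0.21 over all genes tested. The test of the difference in change over time called 2 genes of 14391 (0.0139%), with 1343 at an unadjusted p under 0.05. They were Egr1 and Ccdc117, a gene with 14.5, 14.5, 15.1, 16.5 and 16.0 FPKM at 4 h and 15.9, 17.1, 16.3, 14.0 and 19.3 at 24 h under doxorubicin. In vehicle Ccdc117 went from 14.1, 13.1, 13.4, 13.4 and 12.6 to 29.2, 24.1, 19.6, 20.98 and 20.1 FPKM, so that the vehicle groups were apart and the doxorubicin groups overlapped. The difference between treatments was -0.62 (adjusted p = 0.019, limma). The count was 0 without doxorubicin 4 h library 4, doxorubicin 24 h library 3, vehicle 4 h library 5 or vehicle 24 h library 1, it was 4 without doxorubicin 24 h library 5, and 15 without the high-oviduct libraries.

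With AMH given beside doxorubicin, 274 of the 294 genes had the same sign, and the share of all genes that did is not given here. Between 24 h and 4 h, 13 genes were called in that group (0.0903%), 7 of them among the 294. Npas2, Arntl, Nfil3, Dbp and Tef were among those called, with differences of 1.25, 1.16, 1.22, -1.94 and -1.05. Zbtb16 had 0.91 (adjusted p = 0.31) and Cyr61 0.29 (adjusted p = 0.79), where doxorubicin alone gave 2.84 and 1.80. No gene was called for the difference between doxorubicin and doxorubicin with AMH in the change over time (limma, 628 genes at an unadjusted p under 0.05), so these values are not shown to differ.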

How the data were processed

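Total RNA of mouse uterus was extracted with a Qiagen kit and sequenced as bulk libraries, per the labels' protocols. The authors deposited FPKM per gene, and the submitters' processing notes name genome build mm10. Which aligner and counter made the values, and whether strand was used, is not given in the sources used here. From the values, the deposited FPKM are whole reads divided by gene length and a library factor (100% whole below 1000 reads, tolerance 0.01 reads), and median-of-ratios factors were already equal across libraries, so that alternative scaling changed nothing. Intervals between replicates reflect 5 libraries per group and 16251563 to 21697200 reads in genes.

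Genes with FPKM of 1 or more in at least 5 of the 10 doxorubicin libraries were tested with limma 3.58.1 (R 4.3.3, package data.table in version 1.17.8) on log2(FPKM + 1), over all 40 libraries in 8 groups, with 1 variance weight per group, an intensity trend and Benjamini-Hochberg adjustment over all 14391 genes at a two-sided threshold of 0.05. A difference on this scale understates the change of low genes. Weights differed by group because the spread did. In the simulated version of the doxorubicin comparison (14391 genes), the test recovered 59.7% of 1.5-fold, 86.6% of 2-fold and 97.0% of 4-fold changes and called 11 of 14191 genes left as they were. Whether these rates hold for the genes as measured was not tested. The rates therefore do not show that a gene without a call was unchanged. The libraries of a group differed by more than sampling noise in every pair (chi-square over its degrees of freedom at least 21.8).

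Members and lists were chosen with earlier results of these data known. Named genes are the 10 rising and 10 falling protein-coding calls with the largest difference, non-overlapping values and at least 2 FPKM on average in the higher group, at most 3 calls with the smallest p per list, and a set named whether called or not. List scores are means of log2(FPKM + 1). Python 3.11.15 with matplotlib 3.10.9 drew the figures.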

Additional observations from a re-analysis of the deposited data

Results flagged for a closer look

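Among 63 genes and 12 list means over the 2 doxorubicin groups, 150 groups of 5 were checked for 1 library far from the other 4, which chance gives in about 1 in 20, and 23 stood out. Library 5 at 24 h did so for Ctgf (15.2 FPKM, the others 30.6 to 33.4), Tef (11.1, others 14.9 to 15.8), Tceal5 (2.02, others 0.268 to 0.728), Igfbp5 (273.5, others 58.6 to 111.3), Vwf (3.39, others 5.19 to 5.91) and Amhr2 (8.09, others 1.57 to 2.57). It also did so for the means of the interferon list (2.93, others 3.95 to 4.26), cholesterol synthesis (3.18, others 2.45 to 2.62) and ovarian genes (3.92, others 2.59 to 2.79). Library 2 at 24 h was high for Depp1 (31.3 FPKM, others 3.80 to 11.2), Serpina3n (67.1, others 6.28 to 21.4), Klf2 (63.0, others 34.8 to 40.9) and the adipocyte mean (6.13, others 2.73 to 3.61). Library 4 at 24 h was low for Fn1 (35.8 FPKM, others 72.0 to 83.7).

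At 4 h, library 3 was high for Errfi1 (29.95 FPKM, others 11.8 to 16.6), Serpina3n (19.7, others 1.39 to 3.87), Ifit3 (116.4, others 16.7 to 31.8) and Isg15 (125.9, others 18.99 to 43.4). Library 4 was high for Tcf19 (38.8 FPKM, others 20.5 to 24.3) and Amhr2 (8.18, others 3.38 to 4.16). Library 5 was low for Dnajb9 (10.9 FPKM, others 14.9 to 16.3) and the macrophage mean (2.97, others 3.26 to 3.34), and library 2 was high for the squamous epithelial mean (6.99, others 0.83 to 1.25).

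The change between 24 h and 4 h differed between doxorubicin and vehicle for Egr1 (1.67 on the log2 scale, adjusted p = 0.037, limma) and Ccdc117 (-0.62, adjusted p = 0.019). For Egr1 all 5 doxorubicin values were higher and all 5 vehicle values lower at 24 h.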

How the results depend on the processing

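No named gene turned direction under any setting. Leaving out the high-oviduct doxorubicin libraries ended 13 named calls, while an oviduct score as covariate with all libraries kept ended 2 (Top3a and Mmp3). Of the 47 named genes called, 14 stayed called under every setting in which they were tested (Npas2, Banp, Arntl, Zbtb16, Nfil3, Dbp, Ctgf, Ciart, Dusp1, Tef, Cyr61, Depp1, Nr1d1 and Dnaja1; of these Npas2, Arntl, Ciart and Depp1 did not pass the filter at 5 FPKM), while no filter ended 28 and the 10 libraries alone 20 of the 47 calls, and of the 16 not called, Trp53 and Amhr2 passed in some settings. The 294 calls between 24 h and 4 h under doxorubicin became 142 with the 10 libraries alone, 1405 with 1 weight per library and 47 with no filter on low values, and leaving out 1 library gave 103 to 1366. The 578 vehicle calls became 126 with only the groups compared, 1180 without group weights, 3171 with 1 weight per library, 1073 without a filter, 362 with a filter at 5 FPKM and 1175 with voom on the rebuilt reads, and leaving out 1 library gave 87 to 1734. The 2 calls for the difference in change between doxorubicin and vehicle became 0 with only the groups compared, 0 with voom, 1506 with 1 weight per library, 1 without a filter, 15 without the high-oviduct libraries and 1 after rescaling to total reads, and leaving out 1 library gave 0 to 4. The 39 list genes called became 59 without the high-oviduct libraries and, in a setting added after the data were seen, 144 without doxorubicin 24 h library 5. The other settings run, apart from the replicate block given below, kept these counts within 1.5 times, voom giving 216 doxorubicin calls. The cause of these shifts was not tested. Both rescalings of FPKM were also added after the data were seen.

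Replicate numbers were shared between groups, but same-numbered libraries correlated at only 0.018 to 0.415 in their deviations and 2 of 5 matched their own number best, so the numbers were not taken as pairs. With the replicate block there were 329 calls under doxorubicin, 868 in vehicle and 1 for the difference between them. The block ended the calls of Tk1 (adjusted p = 0.053) and Mmp3 (0.056) and of no other named gene. The pseudocount of 1 compresses the differences of genes near 1 FPKM.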
